A study of Mus musculus with 15 samples.

Results

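The JAK kinases Jak1 and Jak3, the transcription factors Stat5a and Stat5b, the feedback inhibitors Cish, Socs1, Socs2 and Socs3, and the target kinases Pim1 and Pim2 were examined in transferred CD4+ T cells with and without AMPKα1. The 10 genes were taken by their mouse symbol from the 55421 genes counted. JAK1 and JAK3 sit on the cytoplasmic tails of receptors for IL-2, IL-4, IL-7, IL-9, IL-15 and IL-21, JAK3 on the common γ chain and JAK1 on the partner chain. Once a cytokine joins the chains, the kinases phosphorylate STAT5A and STAT5B, which pair, enter the nucleus and bind the palindrome TTCNNNGAA in DNA. Among the genes that STAT5 switches on are those of the inhibitors CIS and SOCS, which bind the receptor or the kinase through an SH2 domain and damp the signal, and of the PIM kinases, which promote growth and survival. In T cells this chain carries the IL-2 and IL-7 signals for division and survival.

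Naive CD4+ CD25- CD44- CD62L+ T cells of C57BL/6 donors were injected into Rag2-/- recipients, which have no T or B cells of their own, as a model of colitis. Donors labelled WT carried PRKAA1fl/fl, and donors labelled KO carried CD4-Cre PRKAA1fl/fl, so the floxed alleles of Prkaa1, the gene of AMPKα1, were shared by all groups. CD4-Cre acts from the thymocyte stage on, so the KO T cells carried the deletion before the transfer, while the hosts kept the gene. The CD4+ T cells present after 6 weeks were sorted by organ, from spleen or mesenteric lymph nodes (mLN), and mRNA was sequenced in 4 WT spleen, 4 KO spleen, 3 WT mLN and 4 KO mLN samples. The mice were 6 to 8 weeks of age at use, donors of both genotypes were littermates, and 1 WT mLN sample (replicate 3) had been left out by the study at quality control. The labels do not say how many mice each sample holds, and the methods describe 1 experiment with 4 mice per group, so the p-values measure the spread between these samples.

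Each sample had 9363940 to 11283439 reads on genes. Levels are given as TMM-scaled CPM, the reads of a gene per 1000000 reads on genes after edgeR's correction for composition. Differences are log2 fold changes with their standard error, and a gene passed the test at a Benjamini-Hochberg adjusted p under 0.05 in edgeR's quasi-likelihood test over all genes. All 10 genes passed the filter on low counts in every comparison, with 201 reads or more in each sample. Prkaa1 was at 46.7 to 53.5 CPM in WT spleen and 18.5 to 21.2 in KO spleen, and at 51 to 60.7 in WT mLN and 21.4 to 32.4 in KO mLN, so every sample matched its label. Reads of Prkaa1 thus remained in KO. Its KO-WT call in mLN (edgeR adjusted p = 0.0372) was lost in all 7 left-out fits. Prkaa1 also passed higher in KO mLN than in KO spleen, at 0.46 (edgeR adjusted p = 0.0361), a call lost in 6 of 8 left-out fits. The T cell markers (Cd3d, Cd3e, Cd3g, Cd4, Trac and Lck) summed to 5824 to 7883 CPM in every sample, and the B cell gene Ms4a1 stayed at or under 0.413 CPM. Haemoglobin and the other erythroid genes summed to 638 to 1502 CPM in WT spleen replicates 3 and 4 and WT mLN replicate 4, and to 13.8 to 81.2 CPM in the 8 KO samples. Cd8a was at 16.5 to 23.2 CPM in KO mLN and at 8.47 or less elsewhere, and the B cell factor gene Pax5 at 1.68 to 4.43 CPM in KO mLN and at 1.57 or less elsewhere. Between KO and WT mLN, Pax5 passed (edgeR adjusted p = 0.0372), a call lost with a library left out in 6 of 7 cases. Cd8a did not pass (edgeR adjusted p = 0.166), nor did Cd8b1 and Cd79b, of the same lists, with log2 fold changes of -0.06 and -0.71.

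To show the STAT5 motif at the feedback genes, promoter windows from 250 bases before to 50 bases after the RefSeq start were searched for TTCNNNGAA on both strands, which for this palindrome read alike. RefSeq's table (GRCm38.p6) had 12 windows for 9 of the 10 genes and none for Socs2. The motif was in 2 of the 12 windows, at Cish with 2 matches and at Socs3 with 1 match, whereas 8.3% of all 32851 windows held it and 0.457% held 2 or more. The Cish stretch (chr9:107296409-107296688, + strand) and the Socs3 stretch (chr11:117969367-117969616, - strand) are printed 5′ to 3′ with the motif in capitals.
Cish: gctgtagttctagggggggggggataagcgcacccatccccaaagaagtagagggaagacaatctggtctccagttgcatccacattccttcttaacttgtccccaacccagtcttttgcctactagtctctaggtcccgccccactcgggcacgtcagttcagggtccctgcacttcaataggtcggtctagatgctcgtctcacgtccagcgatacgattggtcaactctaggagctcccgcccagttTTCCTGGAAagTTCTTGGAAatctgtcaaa
Socs3: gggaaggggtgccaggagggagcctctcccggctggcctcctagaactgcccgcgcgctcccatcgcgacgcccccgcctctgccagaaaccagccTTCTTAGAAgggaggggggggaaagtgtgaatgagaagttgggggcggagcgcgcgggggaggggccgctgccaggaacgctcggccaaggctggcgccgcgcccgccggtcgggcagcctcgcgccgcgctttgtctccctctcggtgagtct
The Cish matches TTCCTGGAA and TTCTTGGAA started at the RefSeq start and 11 bases after it, so the first of them began at the start site itself. The Socs3 match TTCTTAGAA lay 154 bases before the RefSeq start. By the GENCODE gene positions given below, both stretches lie inside the genes, whose outermost starts are further upstream. The stricter form TTCCNGGAA, which the first Cish match has, was in 1.15% of all windows. A match is a string of letters and not a measured site, and its absence from the other windows says nothing of STAT5 binding elsewhere.

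Set per kilobase of the principal transcript, Jak1 was the most abundant of the 10 genes in all 4 groups, with 209, 196, 227 and 211 CPM per kb in WT spleen, KO spleen, WT mLN and KO mLN. Pim2, Pim1 and Jak3 followed in WT spleen at 110.3, 108 and 108 CPM per kb, apart by less than the spread between replicates. The inhibitors Cish, Socs1 and Socs3 came next at 68.8, 64.8 and 57.4, and Stat5b, Stat5a and Socs2 were lowest at 33.1, 18.8 and 17.6. In KO mLN, Pim2 and Socs1 came below Jak1 at 114 and 90.6 CPM per kb, and Jak3, Cish, Socs3 and Pim1 lay together at 48 to 50.7 CPM per kb, again within their spread. With the union of all annotated exons as length, Jak1 stayed highest and Socs2 was lowest in every group, while Cish and Pim2 moved down, so the middle of the order depends on the transcript chosen. Over the 15 samples the levels of Socs2, Pim1 and Jak3 varied most, with SDs of log2 CPM of 0.61, 0.52 and 0.52, and those of Jak1 least, with 0.10.

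**Figure D1:**
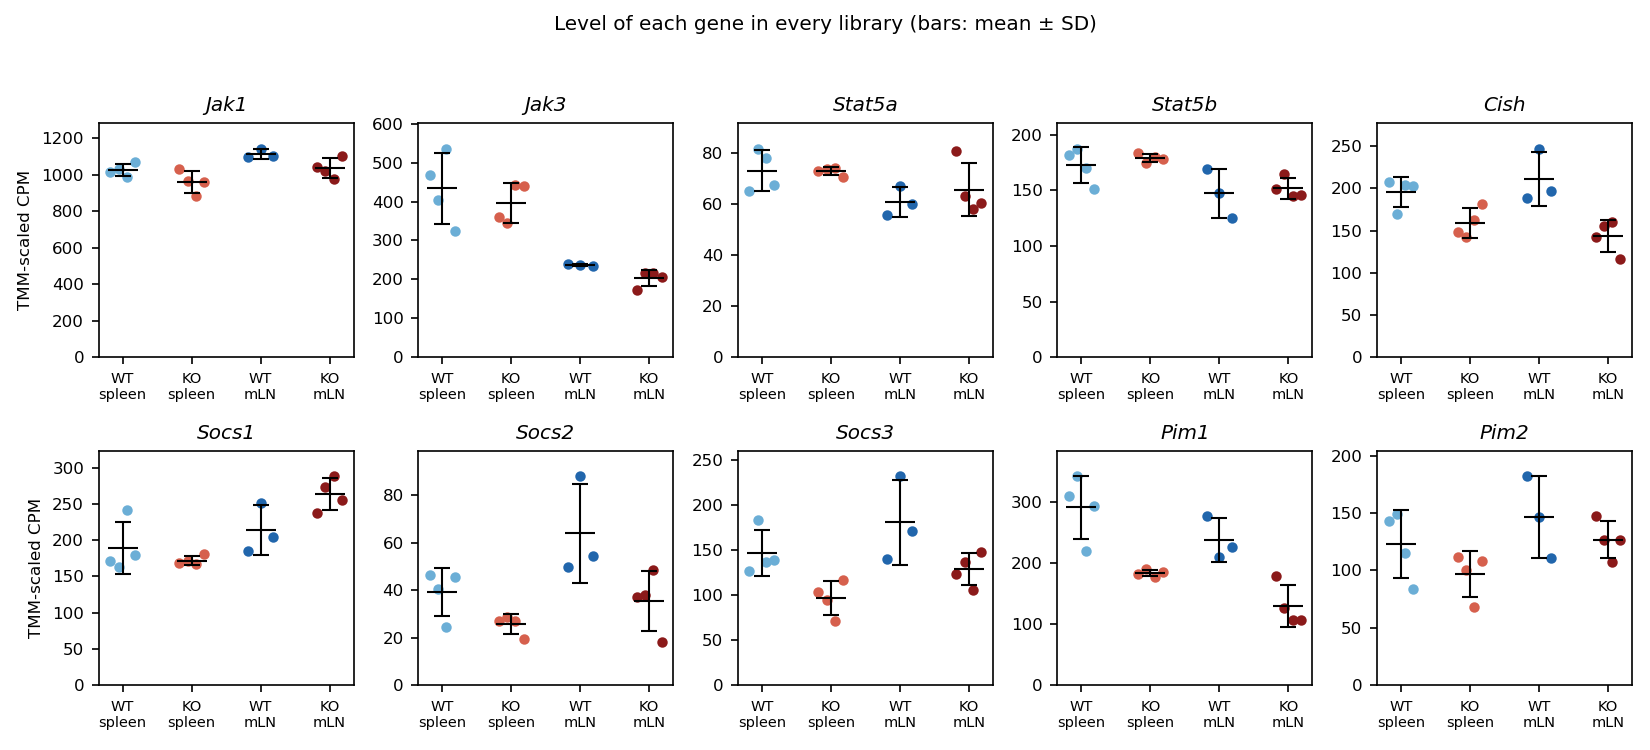
TMM-scaled CPM (y axis, from 0, a separate scale for each gene) of the 10 genes in each library, by genotype and organ, with points for libraries and black bars for the mean ± SD over 4 libraries (3 in WT mLN). Pim1 is lower in every KO library than in every WT library of the same organ, and Jak3 is lower in every mLN library (173 to 218 CPM in KO) than in every spleen library.

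KO and WT cells of the same organ were compared first. In spleen 1 of the 10 genes passed the test, Pim1, which was lower in KO. Of all 14254 genes tested, 0.751% passed lower and 0.547% higher. The log2 fold changes of 9 of the 10 genes were below zero, with a median of -0.22 beside -0.0041 over all genes, and 4 of the 10 were lower at an unadjusted p under 0.05 (10.8% of all genes). In mLN none of the 10 passed in edgeR, where 0.292% of 14359 genes passed lower and 0.348% higher, whereas DESeq2 called Pim1 and Cish lower (2.08% of genes passed lower there). At an unadjusted p under 0.05 in mLN, 5 of the 10 were lower (8.11% of all genes) and 1 was higher (7.58%), and 7 of the 10 fold changes were below zero, with a median of -0.21. In bulk RNA, fewer cells that use a gene and less of its RNA per cell cannot be told apart.

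**Figure D2:**
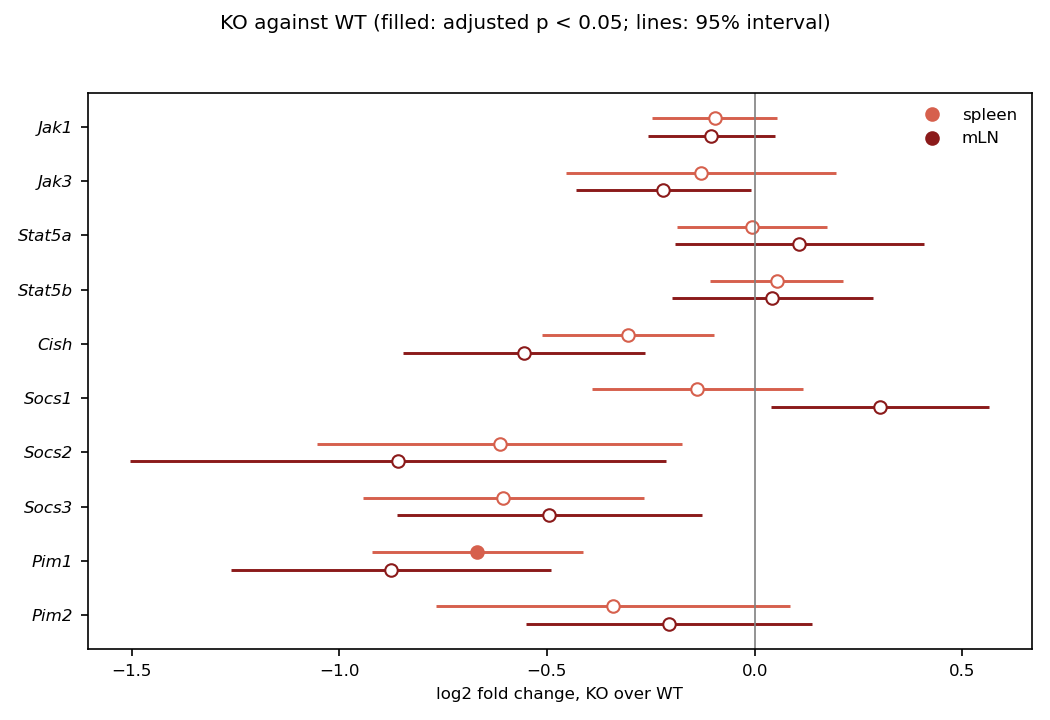
Log2 fold change of KO over WT (x axis) for the 10 genes in spleen (light red) and mLN (dark red), with edgeR's 95% interval as a line and a filled point for an adjusted p under 0.05. Only Pim1 in spleen is filled, at -0.67, and the points of Jak1, Stat5a and Stat5b lie within 0.11 of zero in both organs.

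Jak1, Jak3, Stat5a and Stat5b did not pass between the genotypes in either organ, with edgeR or with DESeq2, and Jak3 in mLN was the only 1 of them under an unadjusted p of 0.05. Jak1 (chr4:101152367-101265282, - strand) was at 1024 ± 34.3 CPM in WT spleen (SD, n = 4) and 959 ± 61.7 in KO spleen (n = 4), and at 1112 ± 26.5 in WT mLN (n = 3) and 1034 ± 53.8 in KO mLN (n = 4). The 95% interval of its log2 difference ran from -0.25 to 0.05 in spleen and from -0.26 to 0.05 in mLN. Jak3 (chr8:71676296-71690575, + strand) was at 238, 238 and 235 CPM in WT mLN and at 173, 218, 217 and 207 in KO mLN, so each KO library was below each WT library, as were 7.37% of all genes. Its log2 fold change of -0.22 ± 0.0958 (SE) missed the threshold (edgeR adjusted p = 0.299), and the spleen groups overlapped (-0.13 ± 0.146). Insl3 shares 7.55% of Jak3's exon bases on the same strand.

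Stat5a (chr11:100859351-100885169, + strand) and Stat5b (chr11:100780731-100850724, - strand) are neighbouring genes that encode near-identical proteins, and both activate cytokine targets. Stat5b was at 173 ± 15.8 CPM in WT spleen and 179 ± 3.80 in KO spleen, and Stat5a at 73.2 ± 8.02 and 72.9 ± 1.57. The groups overlapped for both genes in both organs. The intervals of the log2 difference were -0.19 to 0.17 and -0.11 to 0.21 in spleen and -0.19 to 0.41 and -0.20 to 0.28 in mLN, so a change of STAT5 mRNA beyond 0.41 on the log2 scale lay outside them in either organ. Within a library the read count of Stat5b over Stat5a was 1.86 to 3.04 in all 15 samples, with no separation of groups. Of the 75-base windows in their transcripts, 5.12% of Stat5a's and 6.99% of Stat5b's also occur in the other gene, where uniquely mapped reads cannot be counted.

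Pim1 encodes a serine/threonine kinase that STAT5 induces, and it lies at chr17:29490753-29496112 (GRCm38, + strand). In spleen it was at 310.0, 342, 219.6 and 294 CPM in the WT samples and at 182, 191, 177 and 185 in the KO samples. The groups did not overlap, as in 6.13% of all genes in that direction. The KO values lay within a narrow band, and the lowest WT value was replicate 3. The KO level was 1.59-fold lower, a log2 fold change of -0.67 ± 0.115 (edgeR adjusted p = 0.0378, lower in 4 of 4 KO samples). The call was close to the threshold, since leaving out any 1 of the other 7 spleen libraries gave an edgeR adjusted p of 0.0585 to 0.107, and without WT spleen replicate 3 it was 0.00203. Without both WT spleen libraries high in haemoglobin (replicates 3 and 4) the log2 fold change was -0.83 (edgeR adjusted p = 0.00193). With all spleen samples kept, the call was lost with all 15 samples in 1 fit (edgeR adjusted p = 0.0659) and with the replicate as a block (edgeR adjusted p = 0.0714).

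In mLN Pim1 was at 278, 209.5 and 226 CPM in WT and at 179, 127, 106 and 106 in KO. Here too no KO sample reached a WT sample, as in 7.37% of all genes. The log2 fold change was -0.87 ± 0.175, 1.83-fold lower, with an edgeR adjusted p of 0.0575 and a DESeq2 adjusted p of 4.5e-05. Without KO mLN replicate 1, the highest KO sample, the log2 fold change was -1.07 (edgeR adjusted p = 0.0172). It was the only 1 of 7 left-out fits that passed, and the others gave edgeR adjusted p up to 0.152. With all mLN samples kept, the edgeR adjusted p was 0.016 with all 15 samples in 1 fit (1.88% of genes passed lower there). It was 0.0359 with at least 10 counts in every sample and 0.0497 with library totals alone. Of 8 other settings, 5 passed, and RLE normalization and the replicate as a block were among those that did not. The antisense gene Gm26885 shares 14.5% of Pim1's exon bases, and its own level was 46.8 to 68.5 CPM in WT spleen, 38.3 to 41.2 in KO spleen, 26.9 to 35.6 in WT mLN and 13.8 to 20.7 in KO mLN. The strand setting of the counts is not given in the sources used here, so reads of the shared bases cannot be told apart.

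Pim2 (chrX:7878262-7883432, + strand), which encodes a related kinase, was at 143, 149, 115 and 83.9 CPM in WT spleen and at 112, 101, 67.6 and 108 in KO spleen. In the WT mLN samples it was at 182, 147 and 111, and in the KO mLN samples at 147, 126, 107 and 126. The groups overlapped in both organs, and the log2 fold changes were -0.34 ± 0.192 (edgeR adjusted p = 0.349) and -0.21 ± 0.156 (edgeR adjusted p = 0.584). The read count of Pim1 over Pim2 within a library, which no scaling between libraries touches, was 1.43 to 2.04 in WT mLN and 0.839 to 1.22 in KO mLN. In spleen the ratios overlapped, with 1.91 to 3.51 in WT and 1.63 to 2.62 in KO. The ratio reuses the Pim1 reads given above and carries no test, and how many other gene pairs separate in this way was not examined.

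Cish encodes CIS, which binds phosphorylated receptor chains and competes with STAT5, and lies at chr9:107296026-107302784 (+ strand). In mLN it was at 189, 247 and 197 CPM in WT and at 142, 156, 159.7 and 117 in KO. All KO samples were below all WT samples, as in 7.37% of all genes, with a log2 fold change of -0.56 ± 0.132, 1.47-fold lower. Its edgeR adjusted p was 0.0914 within mLN and 0.0245 where all 15 samples shared 1 edgeR fit (1.88% of genes passed lower there). In DESeq2 its adjusted p was 0.00407. No mLN fit with 1 library left out passed (edgeR adjusted p of 0.0944 to 0.284), and 3 of 8 other settings did. In spleen it was at 208, 169, 204 and 203 in WT and at 148, 143, 163 and 182 in KO. The spleen groups overlapped through WT replicate 2 alone, and the log2 fold change was -0.30 ± 0.0932 (edgeR adjusted p = 0.115). The antisense genes Gm17040 and Gm17041 share 11.5% of Cish's exon bases, and Gm17041 was at 57.5 to 72.6 CPM in WT mLN and 32.3 to 47.1 in KO mLN.

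Socs3 (chr11:117966079-117970047, - strand), which blocks JAK activity at receptors of the IL-6 family and is a target of STAT3 as well as STAT5, was at 127, 184, 137 and 139 CPM in WT spleen and at 103, 94.6, 71.4 and 117 in KO spleen. Every KO spleen sample was below every WT spleen sample, which 6.13% of all genes were. The log2 fold change was -0.61 ± 0.152, 1.52-fold lower, with an edgeR adjusted p of 0.0729 and a DESeq2 adjusted p of 0.00809 (2.77% of genes passed lower in DESeq2). In mLN it was at 139.7, 232 and 171 in WT and at 124, 137, 106 and 148 in KO, where the groups overlapped and the log2 fold change was -0.49 ± 0.167 (edgeR adjusted p = 0.197).

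Socs2 (chr10:95385362-95417180, - strand) had the lowest read counts of the 10 genes. It encodes an inhibitor best known for damping growth hormone signals through STAT5. In mLN it was at 49.5, 87.9 and 54.1 CPM in WT and at 37.1, 37.7, 48.3 and 18 in KO, with no overlap, as in 7.37% of all genes. The log2 fold change was -0.86 ± 0.292 (edgeR adjusted p = 0.202). In spleen it was at 46.4, 40.4, 24.3 and 45.5 in WT and at 27.1, 28.8, 27.1 and 19.3 in KO. There WT replicate 3 lay among the KO samples, and the log2 fold change of -0.61 ± 0.198 (edgeR adjusted p = 0.128) became -0.79 without it (edgeR adjusted p = 0.0262). Without that library 183 of 14453 genes passed lower, beside 107 of 14254 with all libraries. It was the only 1 of 8 left-out fits in which Socs2 passed, and the others gave edgeR adjusted p up to 0.287.

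Foxp3 and Il2ra, which mark regulatory T cells, were high and low in the same mLN samples as Socs2. Foxp3, the lineage factor of these cells, was at 36.3, 111 and 68.6 CPM in WT mLN and at 25.7, 24.6, 43 and 7.36 in KO mLN, and Il2ra, the IL-2 receptor α chain, at 139.9, 321 and 164 and 96.3, 99.2, 113 and 33. WT mLN replicate 2, the highest of its group in Socs2, Socs3, Cish and Socs1, was also the highest in both markers, and KO mLN replicate 4, the lowest in Socs2 and Cish, was the lowest in both. KO mLN replicate 4 was however the highest of its group in Socs3 (148 CPM), and WT mLN replicate 2 the lowest in Pim1 (209.5 CPM). In WT spleen, replicate 1 was the highest in Socs2 (46.4 CPM) and the lowest in Foxp3 (19.3 CPM). In KO spleen, replicate 4 was the lowest in Socs2, Foxp3 and Il2ra (19.3, 9.95 and 39.9 CPM). Foxp3 itself had a log2 fold change of -1.52 ± 0.472 in mLN (edgeR adjusted p = 0.165) and -0.91 ± 0.273 in spleen (edgeR adjusted p = 0.108). The part of these cells in the difference was not tested.

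Socs1 (chr16:10782240-10785536, - strand) binds the kinase domain of JAKs directly and is induced by interferon-γ as well as by γ chain cytokines. It was the only 1 of the 4 inhibitors with a fold change above zero in mLN. In mLN it was at 185, 252 and 204 CPM in WT and at 237, 274, 288 and 255 in KO, so that 3 of 4 KO samples were above every WT sample. The log2 fold change was 0.30 ± 0.119, with a 95% interval of 0.04 to 0.56 and an edgeR adjusted p of 0.257. In spleen it was at 171, 163, 241 and 179 in WT and at 169, 170.4, 166 and 181 in KO, a log2 fold change of -0.14 ± 0.115 that rested on WT replicate 3 and was 0.0026 without it. Ifng, the gene of interferon-γ, had log2 fold changes of -0.06 ± 0.4 in mLN and 0.33 ± 0.464 in spleen and passed the test in neither organ (edgeR adjusted p = 0.962 and 0.732).

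Set against each other within a library, Socs1 and Cish had read counts of similar size in all groups but KO mLN. The ratio of Socs1 to Cish reads was 0.977, 1.02 and 1.04 in the WT mLN samples and 1.67, 1.75, 1.80 and 2.18 in the KO mLN samples. In spleen it was 0.822, 0.962, 1.18 and 0.885 in WT and 1.14, 1.19, 1.02 and 0.996 in KO. All 4 KO mLN samples were thus above the other 11 samples, whose ratios spanned 0.822 to 1.19. This pair was chosen after the values were seen, and the ratio is a description without a test.

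**Figure D3:**
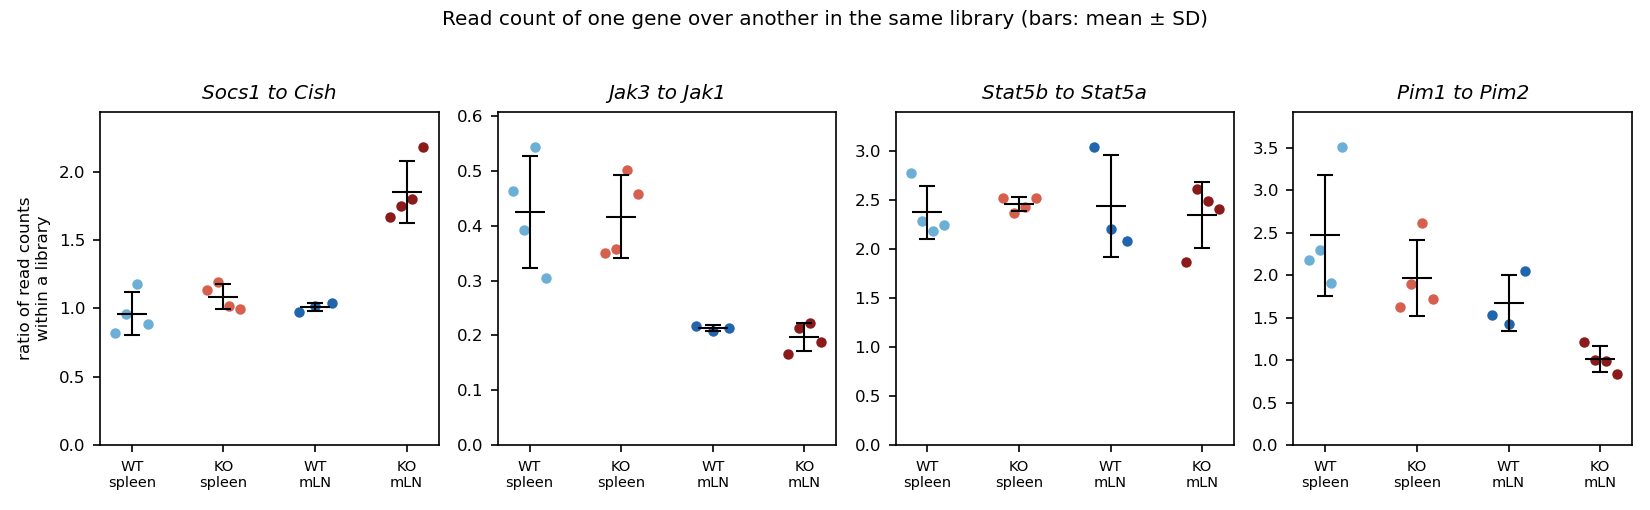
Read count of one gene divided by that of another in the same library (y axes, from 0) for 4 pairs, by genotype and organ, with points for libraries and bars for the mean ± SD. Socs1 to Cish lies at 1.67 to 2.18 in KO mLN and at or under 1.19 elsewhere, and Jak3 to Jak1 lies at 0.166 to 0.222 in mLN and 0.304 to 0.544 in spleen.

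The organs were then compared within each genotype, with spleen and mLN samples treated as independent although they may share mice. These comparisons share their samples with those of KO and WT. In WT cells 1 of the 10 genes passed the test, Jak3, which was lower in mLN, and 10.8% of all genes passed lower and 9.7% higher. In KO cells 4 of the 10 passed: Jak3, Stat5b and Pim1 were lower in mLN, where 13.9% of all genes were lower, and Socs1 was higher, where 11.4% were. The median log2 fold change of the 10 genes was 0.10 in WT and -0.04 in KO, beside 2.74e-05 and 0.0073 over all genes.

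**Figure D4:**
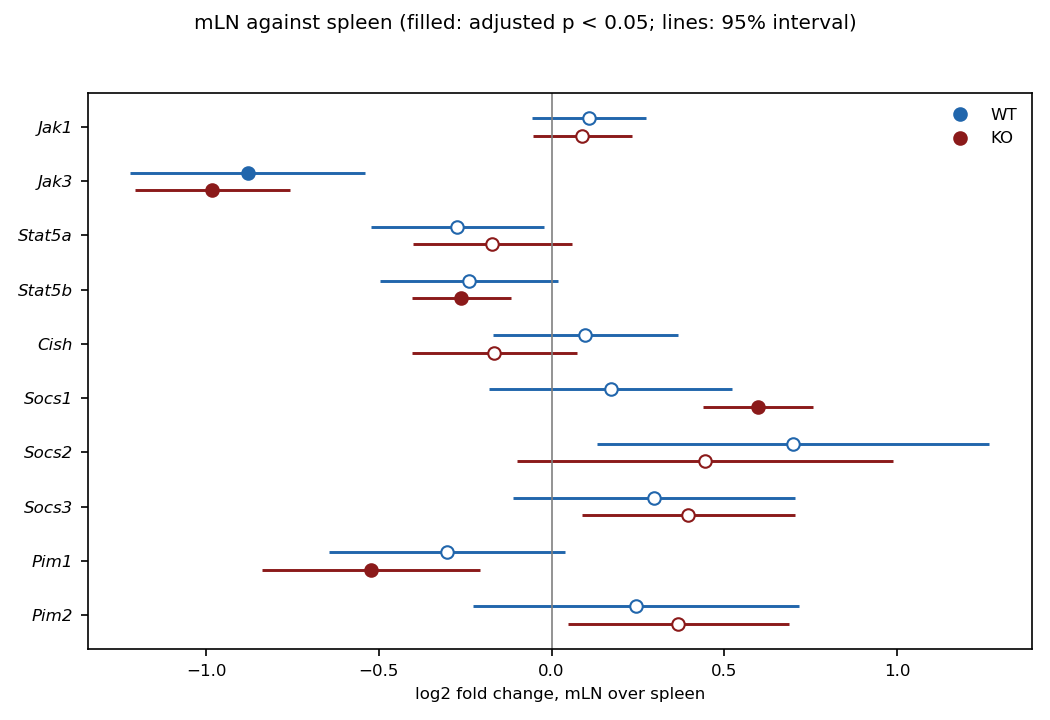
Log2 fold change of mLN over spleen (x axis) for the 10 genes in WT (blue) and KO (dark red), with edgeR's 95% interval and a filled point for an adjusted p under 0.05. Jak3 is filled in both genotypes, at -0.88 and -0.98, and Stat5b, Socs1 and Pim1 in KO, with Jak1 near zero in both.

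Jak3 was lower in mLN than in spleen in both genotypes. It was at 469, 405, 536 and 325 CPM in WT spleen and at 238, 238 and 235 in WT mLN, where the 3 values were nearly equal. In KO it was at 361, 344, 442 and 440.2 in spleen and at 173, 218, 217 and 207 in mLN. No mLN sample reached a spleen sample in either genotype, which held for 15.8% of all genes in WT and 14.5% in KO. The log2 fold changes were -0.88 ± 0.151 (edgeR adjusted p = 0.00445), 1.84-fold lower, and -0.98 ± 0.103 (edgeR adjusted p = 5.94e-05), 1.98-fold lower. Jak1, its partner on the receptors, had 0.11 ± 0.0732 and 0.09 ± 0.0655 and passed in neither genotype. Jak3 reads per Jak1 read were 0.304 to 0.544 over the 8 spleen samples and 0.166 to 0.222 over the 7 mLN samples. Granulocyte genes (S100a8, S100a9, Ly6g and Mpo) moved with the organ, summing to 124 to 444 CPM in WT spleen, 117 to 349 in KO spleen, 45.3 to 61.5 in WT mLN and 16.4 to 37.3 in KO mLN, and their part in the organ differences was not tested. In KO the macrophage genes Lyz2, Csf1r and Adgre1 also passed lower in mLN, at -1.24, -1.49 and -1.86, and the dendritic cell genes Siglech and Itgax higher, at 2.71 and 1.14, of which the call of Itgax was lost with a library left out in 5 of 8 cases. The macrophage list summed to 116 to 327 CPM in KO spleen and 78.1 to 88.3 in KO mLN. Between the genotypes in spleen it summed to 113 to 203 CPM in WT, and DESeq2 called 3 of its genes and 1 dendritic cell gene higher in KO, where edgeR called none. The part of these genes in the differences was not tested.

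Socs1 was higher in KO mLN (237 to 288 CPM) than in KO spleen (166 to 181), without overlap, as were 14.2% of all genes. Its log2 fold change was 0.60 ± 0.0728 in KO (edgeR adjusted p = 0.000169), 1.51-fold higher, and 0.17 ± 0.156 in WT (edgeR adjusted p = 0.481). Ifng was lower in KO mLN than in KO spleen, at -0.78 ± 0.217 (edgeR adjusted p = 0.022), a call lost without any of 4 of the 8 libraries (edgeR adjusted p up to 0.0702). Cd8a was higher in KO mLN, like Socs1, at 0.175 to 1.63 CPM in KO spleen and 16.5 to 23.2 in KO mLN. Cd8b1, the other CD8 chain, was at 2.80 or less in KO spleen and 1.49 to 7.01 in KO mLN. The part of these 2 genes in the Socs1 difference was not tested. Pim1 in KO was lower in mLN, at -0.52 (edgeR adjusted p = 0.0208), although KO mLN replicate 1 overlapped the spleen samples. The call rested on 3 libraries, since without KO spleen replicate 2, KO mLN replicate 3 or KO mLN replicate 4 the edgeR adjusted p was 0.0522 to 0.0558. Stat5b was at 184, 175, 180.1 and 178 CPM in KO spleen and at 151, 165, 145 and 145 in KO mLN, close but without overlap, as in 14.5% of all genes. Its log2 fold change was -0.26 ± 0.0651 in KO (edgeR adjusted p = 0.0127, or 0.0579 with all 15 samples in 1 fit) and -0.24 ± 0.115 in WT (edgeR adjusted p = 0.174). Socs2 in WT was higher in every mLN sample than in every spleen sample, as 16.1% of genes were, at 0.70 ± 0.253 (edgeR adjusted p = 0.08, DESeq2 adjusted p = 0.0274, where 8.71% of genes passed higher). Cish had 0.10 ± 0.119 in WT and -0.17 ± 0.109 in KO, and Socs3 0.30 ± 0.182 and 0.40 ± 0.14, none past the edgeR threshold, while DESeq2 called Socs3 higher in KO mLN (DESeq2 adjusted p = 0.0304).

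In WT the samples of spleen and mLN with the same replicate number deviated from their group means together. With the replicate as a block, 4 of the 10 genes passed in WT, where 15.3% of all genes passed lower and 14.6% higher. Besides Jak3 they were Stat5b at -0.25 (edgeR adjusted p = 0.0302), Socs3 at 0.25 (edgeR adjusted p = 0.0302) and Pim1 at -0.42 (edgeR adjusted p = 0.00886). Stat5b and Pim1 were thus lower and Socs3 higher in mLN than in the spleen of the same number. Without WT spleen replicate 3 and with no block, the log2 fold change of Pim1 was -0.41 (edgeR adjusted p = 0.0468), the only 1 of 7 left-out fits that passed.

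An interaction term of genotype and organ asked whether the KO effect was unequal in spleen and mLN, again with the samples treated as independent. None of the 10 genes passed in edgeR, which called 0% of 15438 genes, or in DESeq2, which called 0.00511% of all genes. Socs1 came nearest, with a difference of 0.44 ± 0.172 on the log2 scale (95% interval 0.07 to 0.80), and was the only 1 of the 10 with an unadjusted p under 0.05 in edgeR, which 2.2% of genes had in that direction. The interval of the difference was -0.70 to 0.28 for Pim1, -0.61 to 0.10 for Cish and -0.49 to 0.31 for Jak3, so unequal effects of these sizes lie within the intervals.

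Upstream of the JAKs, 10 receptor chains that signal through JAK1 or JAK3 were examined (Il2ra, Il2rb, Il2rg, Il4ra, Il7r, Il9r, Il15ra, Il21r, Il6ra and Il6st). Of these, 3 were lower in KO spleen and 1 in KO mLN (0.751% and 0.292% of all genes). The log2 fold changes of 4 in spleen and 5 in mLN were above zero, and DESeq2 called 2 higher and 1 lower in mLN. There Il9r had 0.99 ± 0.231 (edgeR adjusted p = 0.0846) and Il6st 0.80 ± 0.252 (edgeR adjusted p = 0.172). Il2rb had -0.40 ± 0.103 in spleen (edgeR adjusted p = 0.0748). Il7r, the α chain of the IL-7 receptor, was at 1165, 1421 and 1454 CPM in WT mLN and at 562, 486, 365 and 368 in KO mLN, a log2 fold change of -1.60 ± 0.15 (edgeR adjusted p = 0.00314), and at -1.48 ± 0.263 in spleen (edgeR adjusted p = 0.0391). Il2ra was lower in KO spleen, at -1.16 ± 0.157 (edgeR adjusted p = 0.0123), and in mLN its log2 fold change was -1.29 ± 0.373 (edgeR adjusted p = 0.139). Il4ra, the IL-4 receptor α chain, was lower in KO spleen, at -0.44 ± 0.081 (edgeR adjusted p = 0.0443). With 1 library left out, the call of Il7r held in all 7 cases in mLN, that of Il2ra in spleen was lost without KO spleen replicate 2 (edgeR adjusted p = 0.0569), and those of Il4ra and Il7r in spleen were lost without any library but WT spleen replicate 3, with edgeR adjusted p up to 0.113 and 0.108. The common γ chain gene Il2rg was at 730.4 to 1049 CPM in WT spleen and 857 to 1025 in KO spleen, with log2 fold changes of 0.07 ± 0.109 there and 0.10 ± 0.0801 in mLN. The study itself singled out receptor genes, Il2ra and Il7r among them, on these samples, so their direction is not independent evidence.

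Of 14 genes known to be induced through STAT5, 2 were lower in KO spleen (0.751% of all genes) and none passed in mLN by edgeR. At an unadjusted p under 0.05, 5 were lower and 2 higher in spleen (10.8% and 9.67% of all genes), and 6 were lower and 1 higher in mLN (8.11% and 7.58%). DESeq2 called Il2ra, Myc, Bcl2 and Foxp3 lower in spleen and Myc and Bcl2 lower in mLN (2.77% and 2.08% of all genes). The list medians were 0.01 and -0.18. Those lower in spleen were Il2ra, which also counts among the receptors, and Myc, a driver of growth, at 71.6, 116, 81.9 and 123 CPM in WT spleen and 57.6, 60.3, 38.7 and 42.7 in KO spleen. Myc fell by 0.98 on the log2 scale in spleen (edgeR adjusted p = 0.0453), and its log2 fold change in mLN was -0.91 ± 0.201 (edgeR adjusted p = 0.077). The spleen call of Myc was lost without any library but WT spleen replicates 1 and 3, with edgeR adjusted p up to 0.131. The survival gene Bcl2 had -0.79 ± 0.214 and -0.52 ± 0.152, and the cyclin gene Ccnd2 0.33 ± 0.125 and 0.29 ± 0.121, none past the edgeR threshold. Of 3 genes known to be repressed through STAT5, Il7r was lower in both organs, and Bcl6 (0.54 and 0.58) and Tcf7 (0.08 and 0.12) did not pass.

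**Figure D5:**
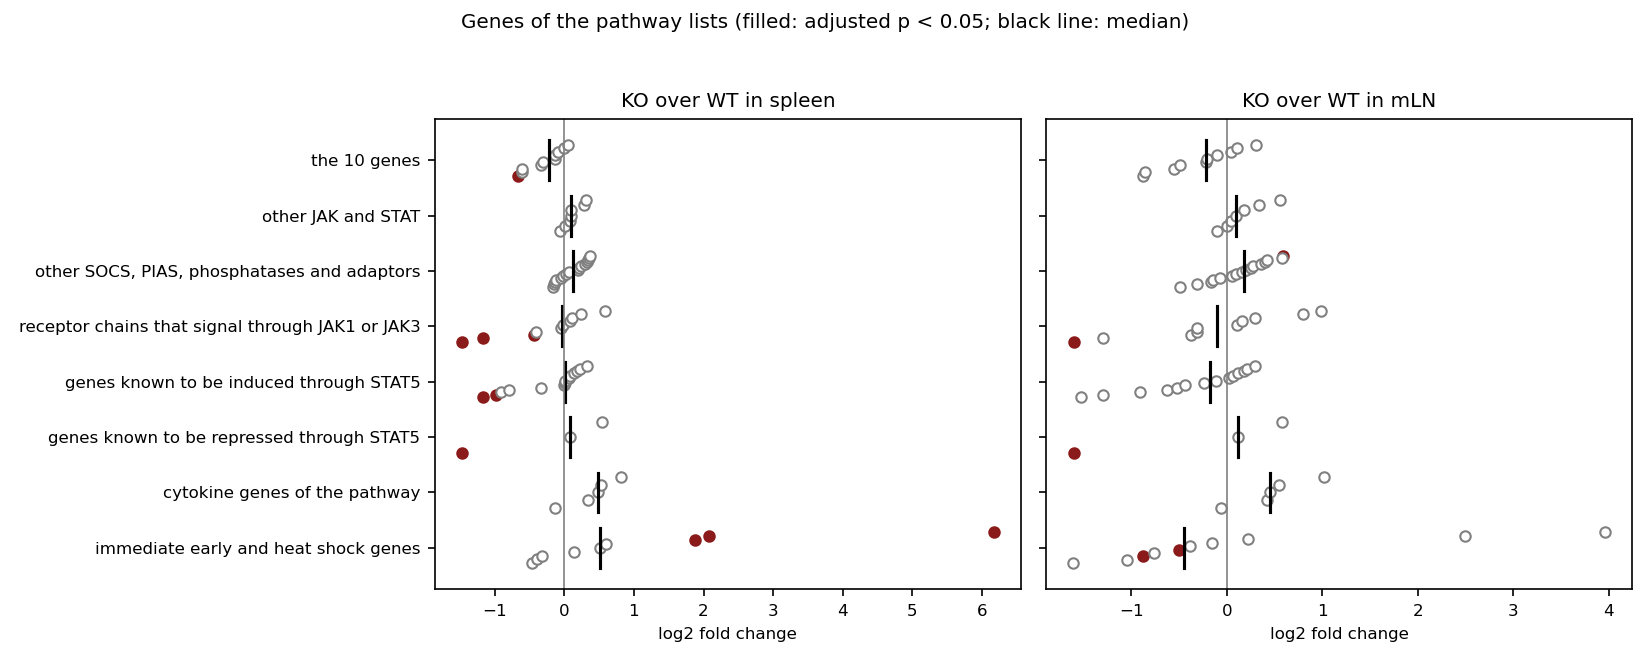
Log2 fold change of KO over WT (x axis, with its own range for each organ) for the 10 genes and for 7 lists of the pathway in spleen (left) and mLN (right), with a filled point for an adjusted p under 0.05 and a black line for the list's median. The filled points lie among the receptor chains, the STAT5 targets and the immediate early genes, with Pim1 in spleen and Ptpn11 in mLN.

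None of the 7 other JAK and STAT genes passed between the genotypes in edgeR in either organ, with medians of 0.09 in spleen and 0.10 in mLN. At an unadjusted p under 0.05, 1 in spleen and 2 in mLN were higher (9.67% and 7.58% of all genes). DESeq2 called Stat2, which acts in interferon signalling, higher in both organs, and its edgeR log2 fold changes were 0.31 ± 0.0861 and 0.56 ± 0.123 (edgeR adjusted p = 0.0972 and 0.0765). Of 16 other SOCS, PIAS, phosphatase and adaptor genes, none passed in spleen by edgeR, where 8 were higher at an unadjusted p under 0.05 (9.67% of all genes) and DESeq2 called Socs4 higher. In mLN 1 passed, Ptpn11, the gene of the phosphatase SHP2, which was higher in KO (0.348% of all genes), at 0.60 ± 0.111 (edgeR adjusted p = 0.0447). That call was lost without any mLN library but KO mLN replicate 1. Of 8 cytokine genes 5 had enough reads to be tested in each organ, and none passed in edgeR or DESeq2. In edgeR 1 in spleen and 3 in mLN were higher at an unadjusted p under 0.05 (9.67% and 7.58% of all genes). Il2 was among them, with 0.48 ± 0.155 in spleen and 0.46 ± 0.186 in mLN. Between the organs, Tyk2, the JAK of interferon and IL-12 receptors, was lower in mLN beside Jak3, at -1.11 ± 0.147 in WT and -1.17 ± 0.121 in KO (edgeR adjusted p = 0.0013 and 5.52e-05), and so was Stat6, which IL-4 activates, at -0.42 ± 0.0992 and -0.51 ± 0.0914 (edgeR adjusted p = 0.0184 and 0.00213). The WT call of Stat6 was lost without WT spleen replicate 1 or WT mLN replicate 4, with edgeR adjusted p up to 0.0548.

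Genes that respond to handling or acute stimulation also moved with genotype. In spleen, 3 of 9 immediate early and heat shock genes tested were higher in KO, where 0.547% of all genes were. They were Fos at 21.4 to 58.2 CPM in WT and 113 to 177 in KO, Fosb at 2.87 to 10.6 and 23.2 to 35.2, and Hspa1a at 0.0974 to 0.52 and 2.89 to 56.7. With 1 library left out, the call of Fos was lost in 1 of 8 cases (KO spleen replicate 2, edgeR adjusted p = 0.0559), that of Fosb in 5 and that of Hspa1a in 7. Another 3 of the 9 had log2 fold changes below zero, Junb (-0.47), Ier2 (-0.32) and Dusp1 (-0.39), of which DESeq2 called Junb and Ier2 lower. In mLN, 2 of 10 were lower in KO (0.292% of all genes), Junb at -0.87 ± 0.135 (edgeR adjusted p = 0.0326) and Ier2 at -0.50 ± 0.0955 (edgeR adjusted p = 0.0492). The Ier2 call was lost without any 1 of the 7 mLN libraries (edgeR adjusted p of 0.0577 to 0.192), and the Junb call without WT mLN replicate 2 or KO mLN replicates 2, 3 or 4 (edgeR adjusted p up to 0.106). The part of such responses in the differences of Pim1 and Socs3, which acute signals also induce, was not tested. In KO cells 7 of 10 such genes were lower in mLN than in spleen, where 13.9% of all genes were. They were Fos at -2.72, Fosb at -3.13, Jun at -2.08, Junb at -1.04, Egr1 at -1.08, Dusp1 at -1.40 and Ier2 at -0.29. Of these, the call of Ier2 alone was lost with a library left out (5 of 8 cases). NK cell genes (Ncr1, Klrb1c, Klre1 and Eomes) summed to 49.8 to 74.9 CPM in WT spleen, 95 to 109 in KO spleen, 45.2 to 59 in WT mLN and 83.4 to 124 in KO mLN, of which Eomes, also a T cell factor, was 30.7 to 46.2 in WT mLN and 68.4 to 118 in KO mLN. Eomes passed higher in KO in spleen (0.93, edgeR adjusted p = 0.0444) and in mLN (1.13, edgeR adjusted p = 0.0422). Those calls were lost with 1 library left out in 7 of 8 and 6 of 7 cases. Klrb1c, a receptor gene of NK cells, went the other way, with log2 fold changes of -1.02 ± 0.432 in spleen and -1.69 ± 0.419 in mLN (edgeR adjusted p = 0.22 and 0.1), and DESeq2 called it lower in mLN.

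The genes whose pattern over the 15 samples was closest to the most variable members were found among 15438 genes by the root mean square difference of centred log2 CPM. Closest to Socs2 were B4galnt4 at 0.22, Smyd3 at 0.28 and Hilpda at 0.30, beside an SD of Socs2 itself of 0.61. Closest to Pim1 were the chemokine receptor gene Ccr2 at 0.20, the long noncoding gene Gm17354 at 0.21 and F2rl1 at 0.22, beside an SD of Pim1 of 0.52. These values describe the 15 samples, which share genotype and organ, and carry no test.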

How the data were processed

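CD4+ T cell RNA was sequenced as single-end reads (NextSeq 500, low-input library kit). The authors aligned the reads with STAR 2.6.1a to GRCm38 with GENCODE M23 and deposited whole-number counts of uniquely mapped reads per gene, without normalization, and the strand setting is not given in the sources used here. Of the uniquely mapped reads, 58.4 to 63.4% were counted for no gene and were left out here. The 15 samples, with 9363940 to 11283439 reads on genes each, were grouped by the genotype and organ in their labels.

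Symbols, positions and lengths were taken from the GENCODE M21 annotation of this build, which holds 55240 of the 55421 genes. Counts were tested with edgeR 4.0.16 in R 4.3.3 (filterByExpr, TMM, quasi-likelihood test) within each organ or genotype, and with an interaction term over all 15 samples, with Benjamini-Hochberg adjustment over all genes tested and a limit of 0.05. Intervals are 95% intervals of the fit. Biological coefficients of variation were 15.3% in spleen and 21.6% in mLN. The procedure was tested on simulated data. DESeq2 1.42.0, RLE normalization, library totals alone, dropping the low-count filter, requiring 10 counts or more per sample, a log2 fold change limit of 1, the replicate number as a block, all 15 samples in 1 fit and leaving out each replicate in turn were the alternatives. Leaving out the WT libraries high in haemoglobin was added after seeing the data. Promoter windows and motif positions came from RefSeq's GRCm38.p6 table. Figures and counts were made with Python 3.11.15, pandas 2.3.3, numpy 2.4.6 and matplotlib 3.10.9.

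The 10 genes, the pathway lists and the tests were chosen with earlier results of these data known. All 10 genes are named in every comparison, a gene of the pathway lists where it passed the test in at least 1 comparison or a result turns on it, and the 3 genes nearest in pattern for the 2 genes with the largest SD. Il2, Il2rg, Il9r, Ccnd2, Bcl6 and Socs4 were named outside this rule, after their values were seen. No samples had identical counts. The replicate numbers come from the labels, which do not tie them to mice. The paper's receptor sequencing compared spleen and mLN of each mouse, so spleen and mLN samples may share mice here too. The main organ tests, the main interaction test and the fit of all 15 samples treated them as independent. Across genes, deviations from the group mean of samples with the same number correlated at 0.243 to 0.291 between the organs in WT, above 0.1 in each pair, so the numbers were taken to pair the samples there. The other comparisons did not meet this mark. The T cell receptor, protein and metabolite measurements of the study were not analysed here.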

Additional observations from a re-analysis of the deposited data

Results flagged for a closer look

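Of the 10 genes in the 3 groups of 4 samples, 30 sets of 4 values in all, 1 set had a sample far from the others. In WT spleen, the lowest sample of Cish (replicate 2, at 169 CPM beside 203 to 208 in the other 3) was separated by a gap of 0.8714 of the group's whole range. Chance alone marks about 1 in 20 such sets.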

How the results depend on the processing

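Under settings other than a left-out library, 343 single-gene values kept their direction and side of the threshold, 26 newly passed, 3 no longer passed and 8 turned. With 1 library left out these numbers were 408, 7, 10 and 25. In spleen KO against WT, where Pim1 passed, the number of the 10 genes passing was 2 with DESeq2, 5 without a filter on low counts, 0 with all 15 samples in 1 fit, 0 with the log2 fold change limit of 1 and 0 to 2 with a library left out. In mLN, where none passed, it was 2 with DESeq2, 1 with library totals alone, 4 without the filter, 1 with at least 10 counts in every sample, 2 with all 15 samples in 1 fit, and 0 to 1 with a library left out. Between the organs it went from 1 to 2 in WT with DESeq2 and without the filter, to 0 with the limit of 1, and to 1 to 2 with a library left out, and from 4 in KO to 5 with DESeq2 (Socs3 added), 7 without the filter, 3 with all 15 samples in 1 fit (Stat5b lost), 0 with the limit of 1 and 3 to 5 with a library left out. Of all genes, DESeq2 called 5.32% in spleen, 4.2% in mLN, 19.1% between the organs in WT and 21.9% in KO. Without the filter 745 genes passed lower and 677 higher of 35256 in spleen, and 493 and 420 of 33681 in mLN. Between the organs 2121 and 1596 of 34385 did in WT and 2371 and 1694 of 34867 in KO. With all 15 samples in 1 fit, 0.551% of genes passed in spleen, 3.24% in mLN and 24.5% between the KO organs. The cause of the added calls without the filter was not tested. Without the WT libraries high in haemoglobin the number of the 10 genes passing was again 1 in spleen, 0 in mLN, 1 between the WT organs and 0 in the interaction, where none passed under any setting.

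With the replicate number as a block, the number passing was 0 in spleen (Pim1 at -0.65, edgeR adjusted p = 0.0714), 0 in mLN, 4 between the organs in WT, and in KO 6, with Socs3 (0.41) and Pim2 (0.38) added. Over all genes the block moved the calls from 185 to 17 in spleen, from 92 to 1 in mLN, from 2980 to 4351 in WT, from 3602 to 3814 in KO and from 0 to 3 in the interaction. Same-number deviations correlated at -0.21 to 0.146 between the genotypes in spleen, -0.053 to 0.0034 in mLN and 0.0258 to 0.259 between the KO organs, and 1 of 8, 0 of 6 and 5 of 8 samples correlated best with their own number.

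Direction turned for small differences that had not passed. In spleen this was so for Stat5a with DESeq2 (0.0021) and without the filter (0.012), and without the WT libraries high in haemoglobin for Stat5b (-0.041) and Socs1 (0.043). In mLN it was Stat5b without the haemoglobin-high library (-0.065), and in the interaction Jak1 with library totals (0.018) and the block (0.0090) and Stat5b with library totals (0.017). With a library left out, log2 fold changes in spleen ran from -0.057 to 0.051 for Stat5a, -0.0037 to 0.094 for Stat5b and -0.20 to 0.0026 for Socs1, in mLN from -0.0076 to 0.19 for Stat5a and -0.065 to 0.15 for Stat5b, and between the WT organs from -0.036 to 0.18 for Cish. In the interaction they ran from -0.048 to 0.028 (Jak1), -0.21 to 0.023 (Jak3), -0.0087 to 0.19 (Stat5a), -0.12 to 0.082 (Stat5b), -0.43 to 0.057 (Socs2), -0.062 to 0.33 (Socs3) and -0.036 to 0.30 (Pim2). Between the KO organs, Socs2 passed without KO mLN replicate 4 (0.67, edgeR adjusted p = 0.0117), Stat5a without KO mLN replicate 1 (-0.28, edgeR adjusted p = 0.022), and Socs3 without KO spleen replicate 4 (0.50) or KO mLN replicate 3 (0.48).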

Other observations

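Between the organs, other genes of the pathway passed beside Jak3. Cbl and Cblb, the genes of ubiquitin ligases that restrain T cell activation, were lower in mLN in WT, at -0.75 and -0.57, and in KO, at -0.71 and -0.48 (edgeR adjusted p = 0.00158, 0.0134, 0.000211 and 0.000518). The WT call of Cblb was lost without WT mLN replicate 2 (edgeR adjusted p = 0.0528), and the other 3 calls held with each library left out. Bcl2l1, the gene of the survival factor BCL-XL, was lower in mLN in both genotypes, at -0.76 and -0.60 (edgeR adjusted p = 0.00139 and 0.00193), while Bcl2 was higher in KO mLN, at 0.73 (edgeR adjusted p = 0.0017). Myc was higher in mLN, at 0.92 in WT and 0.98 in KO (edgeR adjusted p = 0.0198 and 0.00237), and the WT call was lost without WT spleen replicate 1, WT mLN replicate 2 or WT mLN replicate 4 (edgeR adjusted p up to 0.0729). Sh2b3 and Pias3, which encode inhibitors of JAK and STAT proteins, were lower in KO mLN at -0.67 and -0.71 (edgeR adjusted p = 0.00205 and 0.00128). The other genes of the pathway lists that passed between the organs in edgeR were, in WT, Stat2 (-0.44), Ptpn1 (0.30), Ptpn11 (-0.35), Il2ra (0.90), Il6st (-0.86), Foxp3 (1.34) and Pim3 (-0.44), and in KO, Ptprc (0.24), Il2rb (-0.25), Il7r (0.63), Tcf7 (0.39), Ccnd3 (-0.44) and Pim3 (-0.56). With each library left out in turn, the calls of Il7r, Tcf7 and Ccnd3 held, and each of the others was lost without at least 3 of the libraries. These comparisons share their samples with those of KO and WT.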
